A study of Mus musculus with 6 samples.

Results

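Lymphatic endothelial cells, the cells that line the lymphatic vessels, were described in dissociated skin of Balb/c mice measured by droplet-based single-cell RNA sequencing, in which each captured transcript is counted by its unique molecular identifier (UMI). A barcode was taken as lymphatic endothelial when Prox1, Mmrn1 and Flt4 together gave at least 2 UMIs, with at least 1 from Prox1 or Mmrn1, and C1qa, C1qb and C1qc together gave fewer than 5. It also needed at least 300 detected genes and at most 15% of its UMIs in mitochondrial genes. This gave 643 cells of 25772 that passed the last 2 limits and of 38206 barcodes in all.

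The mice received 10 days of epicutaneous (EC) sensitization, that is, exposure through the skin surface, and skin was taken 2 days later and digested with enzymes. The study has 3 control libraries, named EC-SAL, and 3 libraries from OVA-sensitized mice, named EC-OVA (n = 3 per group throughout). The labels call the tissue of all 6 libraries, the controls included, sensitized skin, and only the treatment label separates the groups. They also give the cell type as CD4, which goes against these data, in which lymphatic cells had Prox1 and Ccl21a and no UMI of Cd4. Whether the replicates of a group were separate mice is not said in the labels, and p-values here cover the spread between libraries, which may be technical.

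Lymphatic endothelium takes up interstitial fluid and carries antigen and dendritic cells to the draining lymph node. Its identity depends on the transcription factor Prox1, and its growth is driven by VEGF-C acting on the receptor Flt4 (VEGFR3). Initial lymphatic capillaries carry Lyve1, a hyaluronan receptor, and release Ccl21a, the chemokine that guides Ccr7-bearing dendritic cells into the vessel, whereas collecting vessels and valves have less Lyve1 and depend on factors such as Foxc2 and Gata2.

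The control libraries gave 119, 105 and 90 lymphatic cells and the EC-OVA libraries 106, 110 and 113. Their summed depth was 388452 to 900837 UMIs per library. The median cell had 3373.5 to 3734 UMIs in the controls and 4498.5 to 5233 after OVA, so the groups differ in depth per cell. Of all barcodes, 836 occur in more than 1 library, none of them in the lymphatic cells of 2 libraries, and 33 lymphatic cells carry a barcode that another library also holds.

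The markers Ccl21a, Lyve1 and Reln, which did not enter the choice of cells, went with the label. Ccl21a, at 4:42772860-42773993 (mm10, minus strand), was detected in 91.3% of the lymphatic cells (95% exact interval 88.8 to 93.4%, counting error only), whose median depth was 4127 UMIs. Keratinocytes with Krt5 or Krt14 had it in 4.57% of cells at a median of 7599 UMIs, and blood endothelial cells in 3.83% at 4870.5 UMIs. Lymphatic cells held 95.5% of all Ccl21a UMIs of the kept cells. Lyve1 was detected in 72.9% of lymphatic and 0.615% of blood endothelial cells, and Reln, a secreted glycoprotein, in 63.1% and 0.273%. Pdpn, the membrane glycoprotein podoplanin, was detected in 65.8% and 1.64%. Lymphatic cells held only 9.33% of the Pdpn UMIs of the kept cells, so Pdpn was not particular to them. Ackr4, a chemokine scavenger, went the other way, with detection in 0.778% of lymphatic cells and 7.07% of the keratinocytes. Of the genes the choice used, Mmrn1 was detected in 93.2%, Flt4 in 64.5% and Prox1 in 57.2%.

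The cut at 2 UMIs decided the marginal cells. The 92 cells just inside it had Ccl21a in 77.2% and Lyve1 in 46.7%, the 82 cells at 3 UMIs had Ccl21a in 86.6%, and the 469 cells at 4 or more had it in 94.9%. The 162 cells just outside, with 1 UMI of Prox1 or Mmrn1, had Ccl21a in 28.4% and Lyve1 in 12.3%. Choosing cells instead by 2 of Lyve1, Ccl21a and Reln gave 573 cells, of which 520 were also chosen by the Prox1, Mmrn1 and Flt4 rule.

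**Figure D1:**
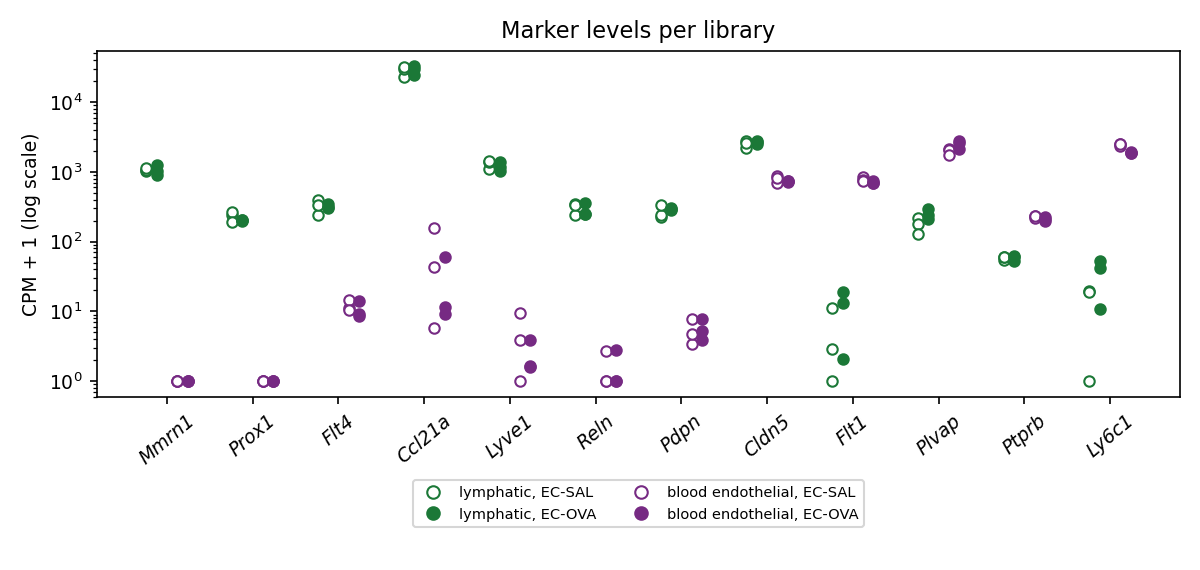
Marker levels in CPM (counts scaled to a total of 1e+06 UMIs) plus 1, on a log axis, in lymphatic (green) and blood endothelial cells (purple) of each library, with open points for EC-SAL and filled points for EC-OVA. Lymphatic points for Ccl21a lie between 23167 and 32467 CPM, far above the blood endothelial ones, and the order is the other way for Flt1, Plvap, Ptprb and Ly6c1.

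Against 1464 blood endothelial cells, taken by Pecam1, Cdh5, Emcn and Flt1 with no UMI of Prox1 or Mmrn1, lymphatic cells had a distinct profile, given here as mean CPM over the 6 libraries with no test because the choice of cells fixes much of it. Ccl21a stood at 28486 against 46.8 CPM, Lyve1 at 1250 against 2.57 and Reln at 296 against 0.579. Ackr2, a scavenger receptor for inflammatory chemokines, stood at 54.0 against 0.105 CPM. Sh3gl3, an endophilin, stood at 204 against 1.31 CPM, Pard6g, a polarity protein, at 322 against 3.71, and Cldn11, a tight-junction claudin, at 78.3 against 0.538. In the other direction, Flt1 (VEGFR1) stood at 7.26 against 744 CPM, Ackr1, the venular chemokine receptor, at 26.4 against 1868, Ly6c1 at 23.1 against 2191 and Jam2, a junctional adhesion molecule, at 2.07 against 362.

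Lymphatic cells made up a larger share of the cells after OVA in each library, but not of the endothelium. The share of kept cells was 2.23, 2.28 and 2.07% in the controls and 2.76, 2.69 and 3.18% after OVA, or 2.19% ± 0.108 (SD, n = 3) against 2.88% ± 0.264. The groups did not overlap, and the two-sided exact permutation test gave p = 0.1, the smallest that 3 against 3 libraries allow. Of lymphatic and blood endothelial cells together, lymphatic cells were 32.1, 31.3 and 30.1% in the controls and 28.4, 28.7 and 32.8% after OVA. Those groups overlapped (31.1% ± 0.992 against 30.0% ± 2.42, p = 0.5 by the same exact permutation test), and counting only cells with at least 4 UMIs of the 3 genes turned the direction to 1.21 percentage points higher after OVA (p = 0.9). A share of recovered cells depends on how many cells of every other type came out of the digestion, whose part was not tested.

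**Figure D2:**
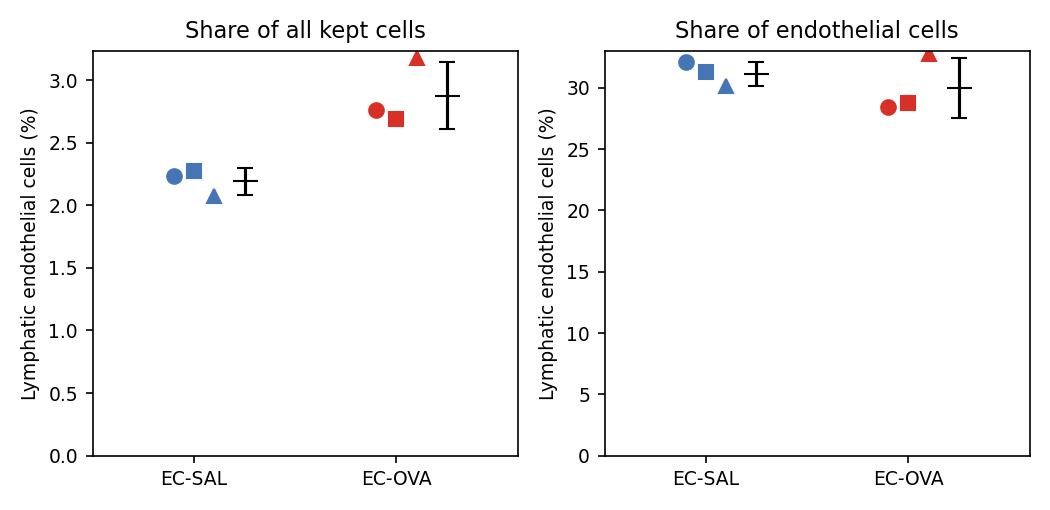
Lymphatic endothelial cells as a percentage of all kept cells (left) and of lymphatic plus blood endothelial cells (right), 1 point per library with the mean and SD beside them. On the left the EC-OVA libraries lie at 2.69 to 3.18%, above every control library, and on the right the groups overlap.

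No gene of lymphatic identity differed between the groups beyond the test's threshold. Ccl21a stood at 23167, 29396 and 31590 CPM in the controls and 32467, 24264 and 30030 after OVA, a log2 change of 0.04 ± 0.12 (SE; adjusted p = 0.963, edgeR's quasi-likelihood test, Benjamini-Hochberg). Lyve1 stood at 1103, 1385 and 1434 CPM in the controls and 1160, 1042 and 1379 after OVA (log2 change -0.13 ± 0.13, adjusted p = 0.807). Reln stood at 244, 340 and 340 CPM in the controls and 246, 249 and 357 after OVA (log2 change -0.11 ± 0.17, adjusted p = 0.900). The groups overlapped for all 3 genes. Prox1 stood at 239, 261 and 193 CPM against 204, 205 and 195, Mmrn1 at 1025, 1064 and 1156 against 1030, 891 and 1269, and Flt4 at 244, 389 and 335 against 302, 312 and 350; these chose the cells and were not tested. None of 16 tested genes of lymphatic identity passed the threshold, where 0.582% of all tested genes did. Their median log2 change was 0.04, beside 0.01 over all genes.

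Between EC-OVA and EC-SAL, 16 of 6358 tested genes rose (0.252% of those tested) and 21 fell (0.33%) at an adjusted p of at most 0.05, together 0.582%. Over the same genes, 14.3% had no overlap of library CPM between the groups in either direction, called or not. Absence of overlap was also required of the 15 largest rises and 15 largest falls named below, so it is no separate support for them. The rises were of genes of antigen presentation and cell division, with Zbp1, Selp, Myct1 and Ptx3 besides, and 14 of the 21 falls were of epidermal genes with far higher levels in the other kept cells. The number of calls rested on the libraries: leaving out control library 1 left 1 rise and 4 falls, control library 3 left 4 and 5, and EC-OVA library 2 raised them to 38 and 39. Without control library 2 there were 8 rises, without EC-OVA library 1 also 8, and without EC-OVA library 3 there were 9 rises and 6 falls. All 37 genes kept their direction in each of these 6 fits.

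**Figure D3:**
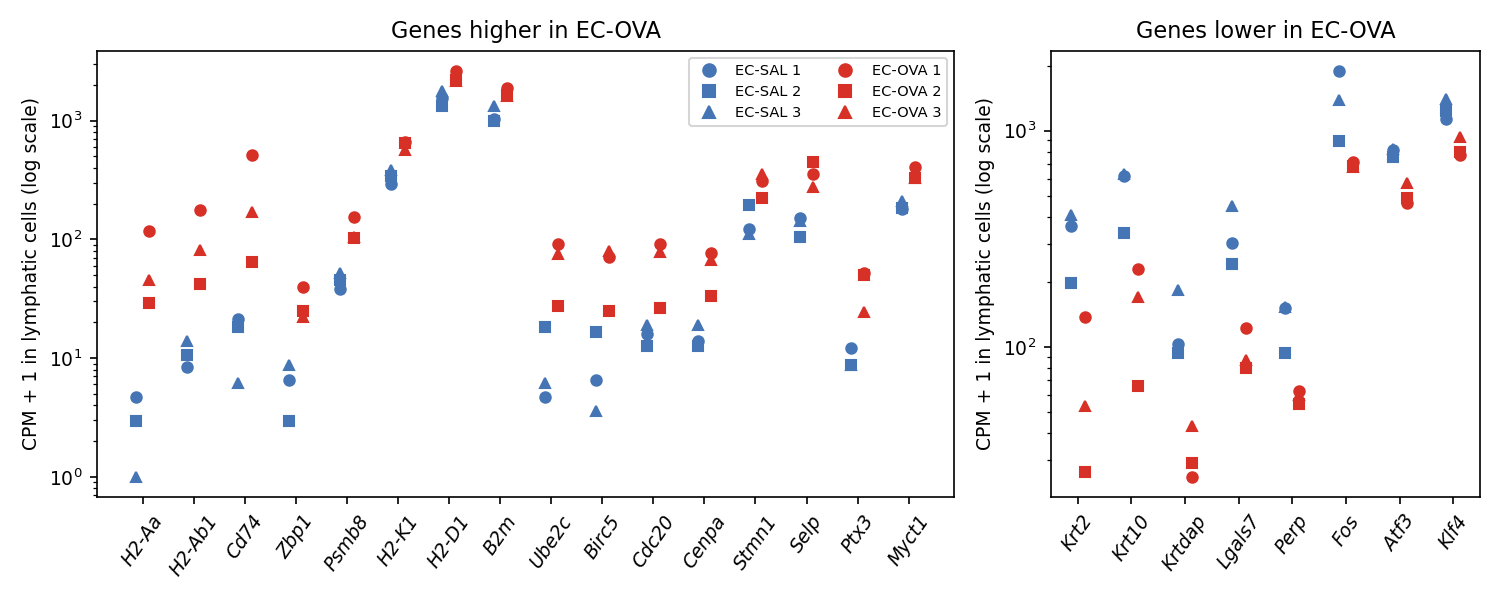
CPM plus 1 in lymphatic cells on a log axis for 16 genes that were higher (left) and 8 that were lower (right) in EC-OVA, 1 point per library, with blue for EC-SAL, red for EC-OVA and the shape for the replicate. The spread among the red points is widest for the MHC class II genes, where EC-OVA library 1 lies highest.

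MHC class II genes, whose products present exogenous peptides to CD4 T cells, showed the largest rises. H2-Aa, the class II alpha chain (17:34282744-34287823, minus strand), stood at 3.73, 1.93 and 0 CPM in the controls and 117, 28.1 and 44.4 after OVA. H2-Ab1, the beta chain (17:34257689-34269419, plus strand), stood at 7.46, 9.67 and 12.9 CPM in the controls and 174, 40.8 and 79.9 after OVA. Cd74, the invariant chain, stood at 20.5, 17.4 and 5.15 CPM against 514, 63.3 and 168. For all 3 genes every EC-OVA library lay above every control library, as the choice of named genes required. EC-OVA library 1 was highest and EC-OVA library 2 lowest among the EC-OVA libraries. The log2 change was 4.76 ± 0.80 for H2-Aa (adjusted p = 0.0195), 3.28 ± 0.55 for H2-Ab1 (adjusted p = 0.0195) and 3.98 ± 0.72 for Cd74 (adjusted p = 0.0267). For H2-Aa the controls held 3 UMIs and the EC-OVA libraries 138, a ratio per UMI sequenced of 29.1 with an exact 95% interval of 9.76 to 143 for counting error only. H2-Eb1 had a log2 change of 3.08 that did not pass (adjusted p = 0.0766), H2-DMb1, which loads peptide, had 0 and 18 UMIs, and Ciita, the class II transactivator, had no UMI in any library.

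Of the 12 tested genes of class II presentation and the interferon-gamma response, these 3 rose, none fell, and the median log2 change was 0.48. Over all tested genes 0.252% rose and the median was 0.01. Gbp4, an interferon-induced GTPase, had a log2 change of 2.43 ± 0.51 just outside the threshold (adjusted p = 0.0506), and Irf1, a transcription factor of the same response, had -0.63 (adjusted p = 0.0758). Of 10 tested interferon-stimulated genes only Zbp1, a nucleic acid sensor, rose, from 5.59, 1.93 and 7.72 CPM to 39.1, 23.9 and 21.1 (log2 change 2.45 ± 0.49, adjusted p = 0.0436), and the median over the list was 0.29. Without any 1 control library the class II calls were lost (adjusted p for H2-Aa 0.110, 0.0743 and 0.140 without libraries 1, 2 and 3, and for Cd74 0.123, 0.0891 and 0.194), and without EC-OVA library 1 the log2 change was 4.03 for H2-Aa, 2.64 for H2-Ab1 and 2.94 for Cd74. Without control library 1 the log2 change of H2-Aa was 5.56, and Zbp1 lost its call without each library except EC-OVA library 2 (adjusted p 0.0712 to 0.175), under DESeq2 (0.0937), at 4 marker UMIs (0.115), with high doublet scores left out (0.0648) and at the 10% mitochondrial limit (0.0509). Cd74 also lost its call with the cells of at least 10 keratinocyte UMIs left out (adjusted p = 0.0594).

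The class II UMIs sat in few cells. Over H2-Aa, H2-Ab1, H2-Eb1 and Cd74, 949 of the 1042 UMIs in EC-OVA lymphatic cells came from 13 cells with at least 3 of them, 4, 5 and 4 per library, or 3.95% of the lymphatic cells. In the controls 1 cell reached 3 such UMIs, and the group held 50. A single cell gave 46.1, 40.6 and 46.3% of the class II UMIs of EC-OVA libraries 1, 2 and 3. All 13 cells had Ccl21a, with at least 24 UMIs each and a median of 276, 10 had Lyve1, and 12 had Flt4 or Prox1. None of the 13 had a UMI of the leukocyte markers searched, 2 had a high doublet score, and their median depth was 10806 UMIs against 4775 in the other EC-OVA cells.

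Class II genes were also abundant elsewhere in the skin: mean H2-Aa was 22-fold and mean Cd74 12.7-fold higher in all other kept cells than in lymphatic cells. H2-Aa was detected in 0.955% of control and 10.9% of EC-OVA lymphatic cells, at median depths of 3581 and 4876 UMIs, against 4.81% and 7.38% of keratinocytes with Krt5 or Krt14, at 7483 and 7872.5 UMIs. Dendritic cell markers summed to 15.4 to 22.4 CPM in control and 10.5 to 23.9 CPM in EC-OVA lymphatic cells, with Itgax, Flt3, Ccr7, Clec9a and Ccl22 at 0 (5 of 10). Macrophage and monocyte markers summed to 89.0 to 113 and 85.5 to 141 CPM, with Adgre1 and Ly6c2 at 0 (2 of 12), though the C1q limit acts on this list. Thinned to 1000 UMIs, 4.92% ± 2.71 of control and 8.62% ± 1.91 of EC-OVA cells had any class II UMI (p = 0.2, exact permutation test), against 14.4 and 28.9% unthinned, so at equal depth the share of cells did not separate the groups.

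MHC class I genes, which present cytosolic peptides, moved by less and more evenly over the libraries. Of 16 tested genes of this pathway 4 rose and none fell, with a median log2 change of 0.42. Beside them, 0.252% of all tested genes rose, and the median over all was 0.01. Psmb8, a catalytic subunit of the immunoproteasome, stood at 37.3, 44.5 and 51.5 CPM in the controls and 153, 103 and 103 after OVA (log2 change 1.43 ± 0.21, adjusted p = 0.0100). H2-K1, a class I heavy chain (17:33996017-34000347, minus strand), stood at 289, 340 and 386 CPM in the controls and 662, 642 and 565 after OVA (log2 change 0.89 ± 0.14, adjusted p = 0.0114). The groups were apart for both genes, as the choice of named genes required. B2m, the light chain shared by all class I molecules (2:122147686-122153083, plus strand), stood at 1040, 996 and 1323 CPM in the controls and 1896, 1626 and 1596 after OVA (log2 change 0.61 ± 0.13, adjusted p = 0.0485). H2-D1, a further classical heavy chain, stood at 1545, 1333 and 1763 CPM in the controls and 2612, 2182 and 2149 after OVA (log2 change 0.58 ± 0.12, adjusted p = 0.0494). H2-K1 and H2-D1 are related genes of similar sequence, so reads may be split between them with some uncertainty. How well the mm10 build matches the class I and class II genes of these Balb/c mice was not tested. Tap1, a peptide transporter (log2 change 0.66, adjusted p = 0.670), and Psmb9 (1.18, adjusted p = 0.206) did not pass.

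Psmb8 and H2-K1 lost their calls without control library 1 (adjusted p = 0.104 for both), and the calls of B2m and H2-D1 were lost without each library except EC-OVA library 2 (adjusted p 0.0556 to 0.230) and in 12 of 17 alternatives in all. At 1000 UMIs per cell H2-K1 was detected in 27.6% ± 4.56 of control and 35.1% ± 1.54 of EC-OVA cells (70.2 and 78.6% unthinned), with no overlap between the groups (p = 0.1, exact permutation test). Psmb8 was detected at that depth in 3.52% ± 0.701 of control and 6.19% ± 3.28 of EC-OVA cells (16.2 and 29.3% unthinned), and those groups overlapped (p = 0.4, exact permutation test).

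In blood endothelial cells of the same libraries none of 20 tested class I genes passed the threshold, where 2.09% of all 8366 tested genes did (0.992% higher and 1.1% lower). The difference of the lymphatic from the blood endothelial response was itself tested, and 29 of 8533 genes passed (0.34%), of which 18 were on the side of a higher lymphatic response (0.211%) and 11 on the other (0.129%). Psmb8 had a lymphatic response higher by 1.62 ± 0.24 on the log2 scale (adjusted p = 0.00445), with a change in blood endothelium of -0.19. H2-K1 differed by 0.72 (adjusted p = 0.00733) and B2m by 0.55 (adjusted p = 0.0418), while H2-D1 did not pass (0.27, adjusted p = 0.469). Gbp4 differed by 2.53 (adjusted p = 0.0300). H2-Aa and H2-Ab1 rose in blood endothelial cells too, by 3.06 (adjusted p = 0.0475) and 2.59 (adjusted p = 0.0234), whereas 4 of the 16 tested genes of their list fell there (median log2 change -0.29) and Cd74 had 2.97 (adjusted p = 0.0661). The differences between the 2 responses did not pass for H2-Aa (1.83, adjusted p = 0.712), H2-Ab1 or Cd74. Of 22 interferon-stimulated genes tested in blood endothelial cells 9 fell and none rose, with a median of -0.57. Isg15, an interferon-induced ubiquitin-like protein, fell in blood endothelial cells (log2 change -0.98, adjusted p = 0.00252) and had 0.29 in lymphatic cells, a difference of 1.21 (adjusted p = 0.0253). Without control library 1 the difference for H2-K1 no longer passed (adjusted p = 0.0719), and that for Psmb8 did (0.0388). The differences for B2m and Gbp4 did not pass without control library 1 or 2 or EC-OVA library 1 (adjusted p 0.140 to 0.205 and 0.0790 to 0.193), nor that for Isg15 without control library 2 or 3 or EC-OVA library 1 (0.0581 to 0.140).

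**Figure D4:**
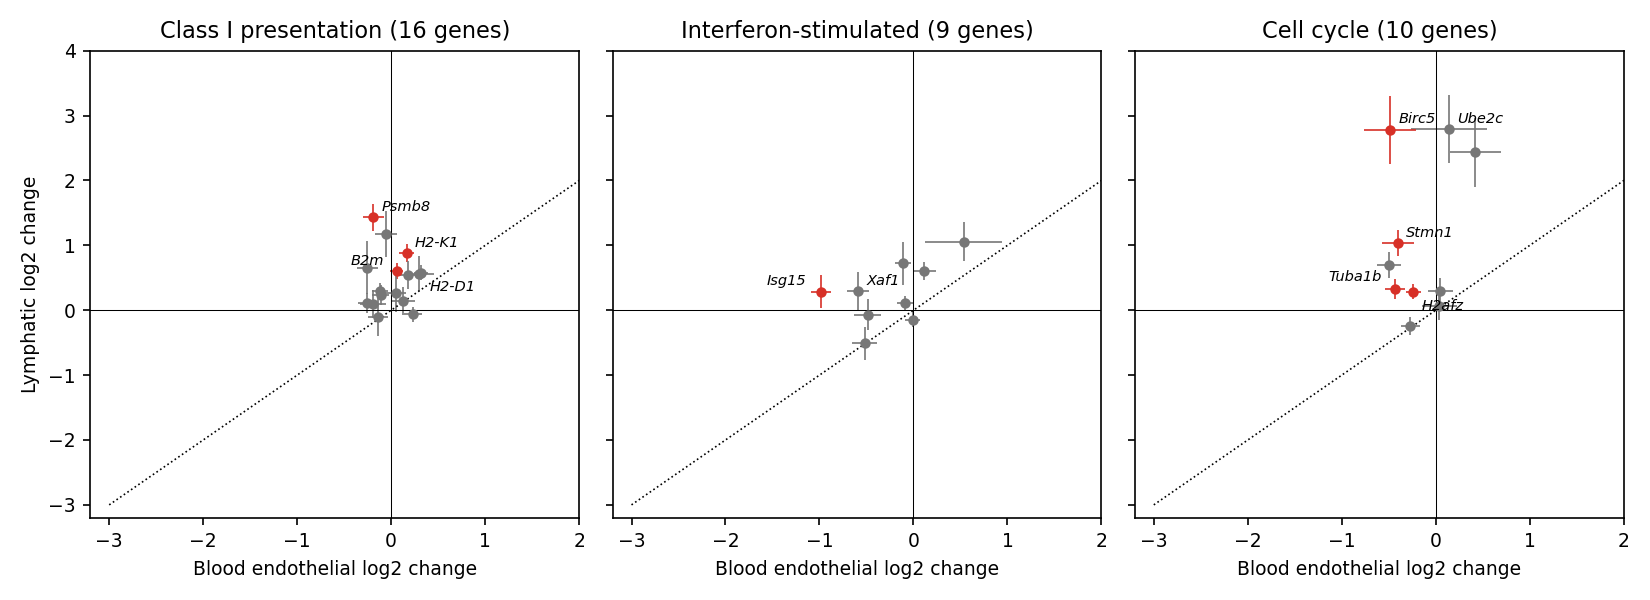
Log2 change in EC-OVA against EC-SAL in blood endothelial (horizontal axis) and lymphatic cells (vertical axis), with standard errors, for 16 class I genes, 9 interferon-stimulated genes and 10 cell cycle genes tested in both. Red points differ between the 2 cell types at an adjusted p of at most 0.05, and they lie above the dotted line of equal response.

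The sequence just upstream is shown for 2 class I genes that rose together, from RefSeq (GRCm38.p6), 5' to 3' on the gene's strand and cut where the annotated gene begins. Capitals mark CCAAT, the letters read by the factor NF-Y, and TTTGAA, the core of the cell cycle homology region. They also mark 2 copies of GAAA with any 2 bases between them, a strict form of the interferon response element. Each was searched on either strand. The H2-K1 window is chr17:34000348-34000597 and the B2m window chr2:122147437-122147685.
H2-K1: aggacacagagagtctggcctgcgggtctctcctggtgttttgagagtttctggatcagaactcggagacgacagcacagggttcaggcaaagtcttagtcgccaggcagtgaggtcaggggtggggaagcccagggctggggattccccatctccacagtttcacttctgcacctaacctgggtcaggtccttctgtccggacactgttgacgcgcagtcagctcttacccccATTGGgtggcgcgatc
B2m: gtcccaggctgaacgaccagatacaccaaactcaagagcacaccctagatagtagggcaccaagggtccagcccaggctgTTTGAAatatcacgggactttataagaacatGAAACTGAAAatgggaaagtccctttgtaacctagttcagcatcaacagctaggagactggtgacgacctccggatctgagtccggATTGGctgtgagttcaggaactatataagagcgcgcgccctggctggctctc
Both hold CCAAT on the opposite strand close to the start, and B2m alone of the pair holds the interferon letters in this exact form. Looser forms of the element were not searched, so H2-K1 is not shown to lack it. Over 32851 promoter windows of 250 bases, CCAAT occurred in 33.8%, TTTGAA in 16.0% and the interferon letters in 2.98%. A match describes letters of the GRCm38.p6 build, not a bound site, and the sequence of these Balb/c mice was not examined. RefSeq lists 2 starts for H2-K1 and the first is shown; H2-Ab1, Zbp1, Gbp4 and Stmn1 were not matched.

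Genes of mitosis rose in lymphatic cells. Birc5 (survivin), a subunit of the chromosomal passenger complex (11:117849251-117855743, plus strand), stood at 5.59, 15.5 and 2.57 CPM in the controls and 70.6, 23.9 and 78.8 after OVA (log2 change 2.78 ± 0.53, adjusted p = 0.0334). Ube2c, the ubiquitin-conjugating enzyme of the anaphase-promoting complex, stood at 3.73, 17.4 and 5.15 CPM in the controls and 90.1, 26.7 and 74.4 after OVA (log2 change 2.79 ± 0.52, adjusted p = 0.0326). Stmn1, a microtubule destabilizer, stood at 121, 195 and 111 CPM in the controls and 309, 221 and 353 after OVA (log2 change 1.03 ± 0.20, adjusted p = 0.0407). In all 3 genes control library 2 was the highest control and EC-OVA library 2 the lowest EC-OVA library. The groups did not overlap, which the choice of named genes required. Cdc20, an activator of the anaphase-promoting complex, rose from 14.9, 11.6 and 18 CPM to 90.1, 25.3 and 76.6 (log2 change 2.12 ± 0.44, adjusted p = 0.0485). Cenpa, the centromeric histone, rose from 13, 11.6 and 18 CPM to 75.1, 32.3 and 65.5 (log2 change 2.04 ± 0.36, adjusted p = 0.0222).

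Of the 10 tested genes of the cell cycle list, Ube2c, Birc5 and Stmn1 rose and none fell, with a median log2 change of 0.51. Among all tested genes 0.252% rose, with a median of 0.01. Cdc20 and Cenpa were not on the list. Top2a, the topoisomerase of dividing cells, had 2.44 (adjusted p = 0.0571). Genes of DNA replication gave -0.24 for Pcna (adjusted p = 0.630) and 0.07 for Mcm3 (adjusted p = 0.963). In blood endothelial cells none of 19 tested cell cycle genes passed, with a median of -0.24, and the difference between the responses passed for Birc5 (3.25 ± 0.49, adjusted p = 0.00463), Stmn1 (1.42 ± 0.19, adjusted p = 0.00263), Tuba1b (0.73, adjusted p = 0.0104) and H2afz (0.52, adjusted p = 0.0304), and outside the list for Cenpa (2.18, adjusted p = 0.0492). Leaving out control library 1 or 3, or EC-OVA library 1 or 3, lost the lymphatic calls of Ube2c, Birc5, Cdc20, Cenpa and Stmn1 (adjusted p 0.0580 to 0.211), and Cdc20 and Cenpa were also lost without control library 2 (0.184 and 0.0891). Without control library 2 the log2 change was 3.81 for Ube2c and 3.69 for Birc5, and with cells holding markers of other types left out Stmn1 and Cenpa lost their calls (adjusted p = 0.271 and 0.145) and the other 3 were too low to test. With the cells of at least 10 keratinocyte UMIs left out none of Ube2c (adjusted p = 0.0987), Cdc20 (0.0756), Cenpa (0.110) and Stmn1 (0.0605) passed, and Cdc20 was also lost at the 10% mitochondrial limit (0.0566) and with leukocyte-UMI cells left out (0.0565). The difference between responses was lost for Tuba1b without control library 1 or 3 or EC-OVA library 1 (0.0517 to 0.0719), for H2afz without each library except EC-OVA library 2 (0.0643 to 0.156) and for Cenpa without any 1 control library or EC-OVA library 1 (0.0848 to 0.288).

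These UMIs also came from few cells. With at least 3 UMIs of 9 mitotic genes there were 1, 3 and 1 cells in the control libraries and 7, 5 and 9 in the EC-OVA libraries, and the latter 21 cells had a median depth of 10939 UMIs against 4672 in the remaining EC-OVA cells. Of those 21 cells, 2 had a leukocyte UMI and 1 a high doublet score, and 2 were among the 13 class II cells. At 1000 UMIs per cell, 2.52% ± 1.36 of control and 5.21% ± 1.77 of EC-OVA cells had a mitotic UMI (5.72 and 13.6% unthinned), and the groups overlapped (p = 0.2, exact permutation test). Birc5 was detected in 1.91% of control and 6.99% of EC-OVA lymphatic cells. Keratinocytes with Krt5 or Krt14 had it in 19.4% and 19.6%, at median depths of 7483 and 7872.5 UMIs. The part of keratinocyte RNA in these rises was not tested.

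For 2 of the genes that rose, the bases upstream are shown in the same way, with the same capitals. The Ube2c window is chr2:164769679-164769897 and the Cdc20 window chr4:118437353-118437593.
Ube2c: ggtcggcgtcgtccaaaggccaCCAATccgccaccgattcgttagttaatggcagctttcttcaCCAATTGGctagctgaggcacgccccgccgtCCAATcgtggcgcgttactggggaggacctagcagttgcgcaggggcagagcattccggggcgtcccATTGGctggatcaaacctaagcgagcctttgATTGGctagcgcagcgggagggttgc
Cdc20: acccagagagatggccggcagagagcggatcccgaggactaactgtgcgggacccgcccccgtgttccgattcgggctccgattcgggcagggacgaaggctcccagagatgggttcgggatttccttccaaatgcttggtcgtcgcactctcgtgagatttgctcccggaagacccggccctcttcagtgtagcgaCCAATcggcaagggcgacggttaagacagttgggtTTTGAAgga
Ube2c held CCAAT 6 times in the 250 bases before its RefSeq start, 2 of them overlapping in CCAATTGG, and TTTGAA once beyond the bases shown. Cdc20 held CCAAT 2 times, 1 of them beyond the bases shown, and TTTGAA once. Top2a held them 6 and 2 times, Cenpa held CCAAT 2 times, and Birc5 held neither.

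Selp and 2 further genes made up the rest of the named rises. Selp encodes P-selectin, which captures rolling leukocytes, and stood at 149, 104 and 142 CPM in the controls and 353, 451 and 275 after OVA (log2 change 1.46 ± 0.20, adjusted p = 0.00760). All EC-OVA libraries lay above all controls, which the choice of named genes required. Selp alone among the rises kept its call without any 1 library (largest adjusted p 0.0499). Ptx3, a secreted pentraxin of innate immunity, stood at 11.2, 7.74 and 7.72 CPM in the controls and 51.1, 49.2 and 23.3 after OVA (log2 change 2.13 ± 0.43, adjusted p = 0.0436). Myct1, an endothelial membrane protein, stood at 181, 184 and 209 CPM in the controls and 406, 329 and 326 after OVA (log2 change 0.89 ± 0.13, adjusted p = 0.0108). Myct1 also rose in blood endothelial cells (0.65, adjusted p = 0.0415). Ptx3 was 13.3-fold higher in other kept cells than in lymphatic cells, and it lost its call without each library except EC-OVA library 3 (adjusted p 0.0537 to 0.201), as Myct1 did without control library 1 (0.104). Ptx3 was also lost at 4 marker UMIs (adjusted p = 0.114), with high doublet scores left out (0.0596), at the 10% mitochondrial limit (0.0566), and with leukocyte-UMI cells (0.0590) or keratinocyte-UMI cells (0.0591) left out.

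Selp was detected in 15% of control and 30.1% of EC-OVA lymphatic cells, at median depths of 3581 and 4876 UMIs, against 1.23% and 2.00% of keratinocytes with Krt5 or Krt14. At 1000 UMIs per cell the shares were 6.24% ± 3.14 and 13.9% ± 2.89, with no overlap (p = 0.1, exact permutation test). Cells with at least 3 Selp UMIs numbered 11, 8 and 6 in the controls and 16, 21 and 22 after OVA. Selp was far higher in blood endothelial cells, with a mean of 3436 CPM in the controls and 4554 after OVA (0.39, adjusted p = 0.174), and the lymphatic response was higher by 1.06 (adjusted p = 0.0351), a difference that did not pass without any 1 control library (0.0765 to 0.179). Markers of blood endothelium, Selp among them, summed to 3779 to 4222 CPM in control lymphatic cells. After OVA they summed to 4318 to 4634 CPM, with 10 of 14 higher and none at 0. Flt1, a defining one, had 5 and 22 UMIs in the 2 groups. Ackr1, the venular one, had a mean of 4.49 CPM ± 2.98 (SD) in control and 48.3 ± 50.3 in EC-OVA lymphatic cells. The part of these markers in the Selp result was not tested. For Ptx3 the difference between responses was 3.39 (adjusted p = 0.00733), and without control library 1 it did not pass (0.227).

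Other adhesion molecules and chemokines did not pass in lymphatic cells, and Selp was the 1 gene called of 22 tested in leukocyte trafficking (median log2 change 0.13). The share called over all tested genes was 0.582%. Sele, encoding E-selectin, had 1.88 (adjusted p = 0.120) and Vcam1 1.55 (adjusted p = 0.198), with 12 and 20 UMIs in the controls. Ccl2 and Ccl7, chemokines for monocytes, had 0.11 (adjusted p = 0.853) and 0.22 (adjusted p = 0.524). S1pr1, a sphingosine 1-phosphate receptor, had 0.67 (adjusted p = 0.105).

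The neutrophil chemokines and Icam1 differed between the 2 kinds of endothelium. Cxcl2 stood at 371, 468 and 633 CPM in control lymphatic cells and 276, 226 and 325 after OVA (log2 change -0.82 ± 0.18, adjusted p = 0.0571), and in blood endothelial cells at 153, 291 and 261 CPM and then 408, 389 and 307. The difference between the responses was -1.46 (adjusted p = 0.00277). Cxcl1 gave -0.50 in lymphatic and 0.32 in blood endothelial cells, a difference of -0.82 (adjusted p = 0.00655). Icam1, an integrin ligand, stood at 2405, 2878 and 2729 CPM in control lymphatic cells and 1819, 2113 and 2067 after OVA (log2 change -0.42, adjusted p = 0.142), against 0.28 in blood endothelial cells, a difference of -0.70 (adjusted p = 0.00728). In lymphatic cells every EC-OVA library lay below every control for all 3 genes, though none passed there and 14.3% of all tested genes had no overlap in either direction.

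Nts, which encodes the peptide neurotensin, differed in level and in response. It stood at 820, 468 and 530 CPM in control lymphatic cells and 637, 555 and 505 after OVA, with overlapping groups (log2 change -0.10, adjusted p = 0.909). In blood endothelial cells it stood at 9.30, 5.57 and 27.4 CPM and rose to 82.6, 145 and 66.0 (log2 change 2.84, adjusted p = 0.0156), and the difference of responses was -2.89 ± 0.38 (adjusted p = 0.00263). Prss23, a serine protease, behaved likewise, with 0.36 in lymphatic cells (adjusted p = 0.464) and a rise of 1.36 in blood endothelial cells (adjusted p = 0.000423), a difference of -0.99 (adjusted p = 0.00288). Gdf15, a stress cytokine, gave -0.59 and 1.04, a difference of -1.68 (adjusted p = 0.0185) that did not pass without control library 1 or 2 (0.0848 and 0.0649). Lcn2, an iron-binding lipocalin, gave -0.50 in lymphatic cells and fell by 1.58 in blood endothelial cells, a difference of 1.08 (adjusted p = 0.00964) that did not pass without control library 1 (0.0635).

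Most falls were of epidermal genes. Lgals7, a galectin of keratinocytes, stood at 302, 242 and 445 CPM in the controls and 122, 78.7 and 85.5 after OVA (log2 change -1.79 ± 0.22, adjusted p = 0.00358). Sprr1a, a precursor of the cornified envelope, stood at 52.2, 60.0 and 74.7 CPM in the controls and 7.51, 7.03 and 15.5 after OVA (log2 change -2.53 ± 0.32, adjusted p = 0.00358). Krtdap, a keratinocyte differentiation protein, stood at 102, 92.8 and 183 CPM in the controls and 24.0, 28.1 and 42.2 after OVA (log2 change -1.93 ± 0.28, adjusted p = 0.00972). These 3 kept their calls without any 1 library. Their groups did not overlap, which the choice of named genes required. Log2 changes were -1.78 for Krt10, a suprabasal keratin (adjusted p = 0.0205), -2.20 for Krt2 (0.0205), -2.32 for Cldn4 (0.0186) and -1.17 for Perp, a desmosomal protein (0.0182). Mt4, Aqp3, Lypd3, Urah, Dmkn, Calm4 and Sfn also fell, with log2 changes of -2.11 to -1.18. Each of these further 11 genes lost its call without control library 1, among other libraries (adjusted p 0.111 to 0.225), and 5 of the 11 lost it under DESeq2: Krt10 (0.157), Krt2 (0.215), Mt4 (0.184), Lypd3 (0.331) and Calm4 (0.274). All of the epidermal genes named here had a mean level 9.53-fold to 21.2-fold higher in the other kept cells than in lymphatic cells.

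Of 12 tested keratinocyte markers 6 fell, none rose and all had a negative value, with a median log2 change of -1.22. Over all tested genes 0.33% fell, with a median of 0.01. The 14 markers summed to 3081, 2060 and 2821 CPM in control lymphatic cells and 1553, 633 and 813 after OVA, with none of the 14 at 0. The same sum went from a mean of 5699 to 2034 CPM in blood endothelial cells and from 40085 to 24735 in all other cells. At 1000 UMIs per cell, 64.5% ± 8.28 of control and 25.6% ± 5.20 of EC-OVA lymphatic cells held a UMI of the keratins or Lgals7 (96.3 and 67.0% unthinned). Fibroblast markers summed to 595 to 2285 CPM in control and 173 to 1212 in EC-OVA lymphatic cells (9 of 10 lower, none at 0), and none of 5 tested passed. The part of RNA from keratinocytes or fibroblasts in the falls was not tested.

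Genes of the early stress response were lower after OVA. Fos, an AP-1 subunit, stood at 1884, 895 and 1385 CPM in the controls and 715, 682 and 675 after OVA (log2 change -1.01 ± 0.19, adjusted p = 0.0334). Atf3, a stress-induced transcription factor, stood at 813, 756 and 824 CPM in the controls and 463, 488 and 571 after OVA (log2 change -0.65 ± 0.12, adjusted p = 0.0222). Klf4, a shear-responsive transcription factor on the list for collecting vessels and valves, stood at 1131, 1226 and 1398 CPM in the controls and 766, 798 and 929 after OVA (log2 change -0.59 ± 0.12, adjusted p = 0.0436). The groups were apart for all 3. Of 20 tested genes that respond to tissue digestion, Fos and Atf3 fell and none rose. Of the 20, 19 had a negative value, with a median of -0.30. Across all genes tested in lymphatic cells 0.33% fell, and the median was 0.01. In blood endothelial cells 3 of 19 digestion genes fell, beside 1.1% of all genes tested there, with Fos among the 3 (-0.99, adjusted p = 0.0225). The summed level of this list was 15223 to 18241 CPM in control and 13325 to 13636 in EC-OVA lymphatic cells, and what part the digestion had was not tested. Fos and Atf3 lost their calls without control library 1 or 3 or EC-OVA library 1 (adjusted p 0.0783 to 0.191), Fos also without EC-OVA library 3 (0.127), and Klf4 without each library except EC-OVA library 2 (0.0929 to 0.239). At 4 marker UMIs the adjusted p was 0.207 for Fos, 0.0965 for Atf3 and 0.0548 for Klf4. Atf3 and Klf4 were also lost with high doublet scores left out (0.0664 and 0.0527) and with cells holding markers of other types left out (0.109 for both).

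The other falls called were Pnrc1, a nuclear receptor coactivator (log2 change -0.57, adjusted p = 0.0436), Ppp1r15a, which ends the block on translation in stress (-0.55, adjusted p = 0.0485), and 2 enzymes of sterol synthesis. Fdps stood at 83.9, 75.4 and 85.0 CPM in the controls and 51.1, 30.9 and 37.7 after OVA (log2 change -1.03, adjusted p = 0.0436). Msmo1 stood at 46.6, 52.2 and 20.6 CPM in the controls and 13.5, 8.43 and 14.4 after OVA (log2 change -1.73, adjusted p = 0.0485). Both enzymes were higher in other kept cells, by 5.22-fold and 6.32-fold. All 4 genes lost their calls without control library 1 or 2 or EC-OVA library 3, among others (adjusted p up to 0.211), and with cells of high doublet score left out (0.0617 for Pnrc1 and Ppp1r15a, 0.260 for Fdps and 0.151 for Msmo1).

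Many pathways of lymphatic biology had no gene past the threshold, which does not show that they were unchanged. Over all 6358 tested genes 0.582% were called, and at that share most lists of this size would hold none. None passed of 13 tested lymphangiogenic genes, 20 junction genes, 29 matrix and integrin genes, 19 cytokine receptors, 16 genes of the TNF and NF-kB response, 7 of the IL-4 and IL-13 response, 15 of coagulation and vasoactive factors, 13 of lipid handling, 16 of glycolysis and hypoxia, 15 of guidance and Notch signalling and 7 of immune regulation. Nrp2, the coreceptor of VEGF-C, had 0.55 ± 0.17 (adjusted p = 0.215), Procr, the protein C receptor, 0.65 ± 0.16 (adjusted p = 0.0818), and Tfpi2, a serine protease inhibitor, 1.53 ± 0.43 (adjusted p = 0.170). Vegfc itself had no UMI in lymphatic cells. On simulated counts with the same libraries and 6134 genes, 73.8% of the 84 genes changed by 1 on the log2 scale were recovered. So were 100% of the 101 genes changed by 2, and 14 of the 177 calls were false. More genes were changed there than were called in lymphatic cells, so these shares may not carry over to the real test. Changed genes that the filter on low counts removed are not in these shares. The simulation drew sums per library, so it held no genes whose UMIs sit in few cells. H2-Eb1, Top2a and Gbp4 had log2 changes above 2 in the real counts and did not pass.

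Clustering of the 643 cells without the 3 genes of the rule gave 7 clusters, described here with no test. Cluster 4 (232 cells) and cluster 1 (218 cells) held most cells. Cluster 4 had Ccl21a at 39806 CPM and Lyve1 at 1725. Cluster 1 had Ccl21a at 26949 and Lyve1 at 1131 CPM and was led by Csf3 (granulocyte colony-stimulating factor), at 1944 against 293 CPM in the other lymphatic cells, with Selp at 537 against 93.6, Ccl2 and Ccl7. Of the cells with at least 3 Selp UMIs, 21 of 25 in the controls and 51 of 59 after OVA lay in cluster 1, where Flt1 had 1 UMI in all. Counted in UMIs, cluster 1 held 781 of Selp. Cluster 3 held 123, in 5.26% of its cells, and 21 UMIs of Flt1.

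Cluster 3 (57 cells) was low in Lyve1 (320 CPM) and Ccl21a (12236 CPM). It was led by Adm (adrenomedullin), with Cldn11 at 439 against 28.3 CPM and Gja4 (connexin 37) at 215 against 18.2 in the other lymphatic cells. Foxc2 stood at 163 CPM and Gata2 at 217 CPM, both higher than in any other cluster. It held 15.1, 4.76 and 8.89% of the control and 5.66, 9.09 and 8.85% of the EC-OVA lymphatic cells, which overlap. Ackr1 at 210 CPM came from 7.02% of its cells.

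Cluster 0 (90 cells) was led by Fos, Klf2 and Egr1 and held 13.4, 18.1 and 25.6% of control and 10.4, 9.09 and 9.73% of EC-OVA cells. Cluster 6 (17 cells) was led by Top2a, Ube2c and Birc5, with a median depth of 10202 UMIs, and held 0, 3 and 0 control and 5, 2 and 7 EC-OVA cells. Cluster 2 (14 cells) carried keratinocyte genes such as Krt1. Cluster 5 (15 cells) was led by Wif1, Cnmd, Ucma and Actg2, with Tnmd, Matn4, Mia, Col1a1 and Col1a2 also among its 10 leading genes, and is left unnamed. High doublet scores marked 10 cells of cluster 2 and 12 of cluster 5. At a resolution of 0.8 there were 8 clusters.

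**Figure D5:**
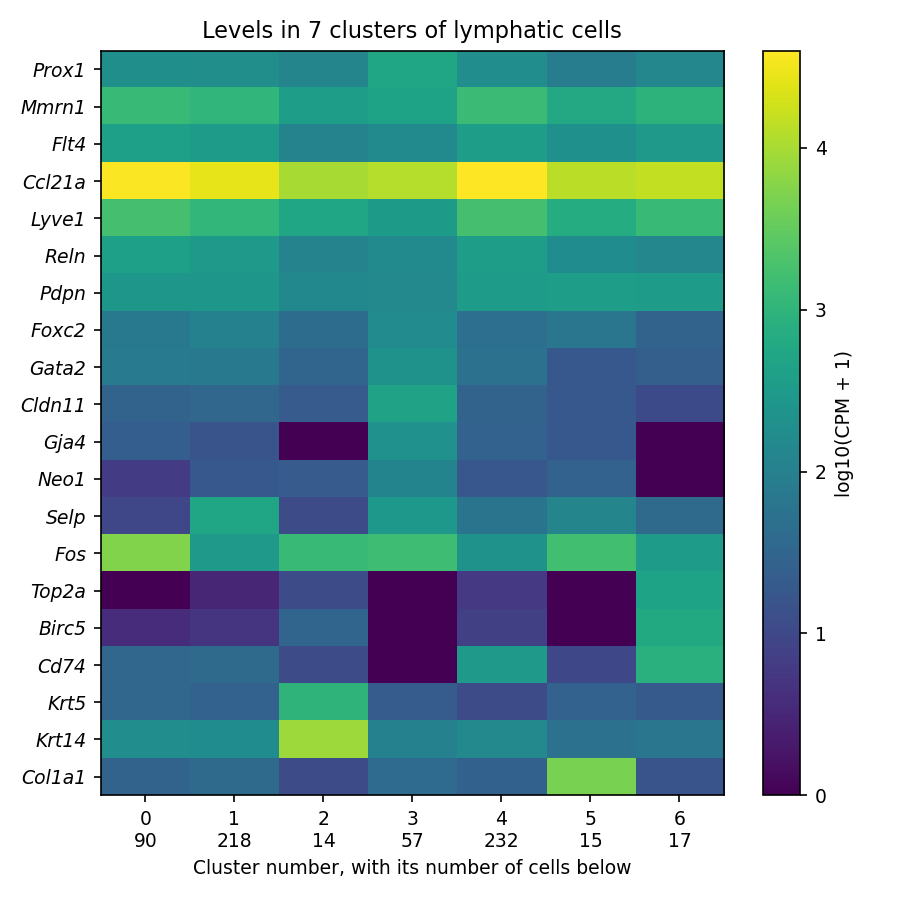
Mean level, as log10 of CPM plus 1, of 20 genes in the 7 clusters of lymphatic cells, whose numbers and cell counts stand below. Foxc2, Gata2, Cldn11 and Gja4 are brightest in cluster 3, Selp in cluster 1, Top2a and Birc5 in cluster 6, Krt14 in cluster 2 and Col1a1 in cluster 5.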

How the data were processed

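For each of the 6 libraries the authors deposited a matrix of UMI counts per gene and barcode. Per the file headers it was made with Cell Ranger 3.1.0, and per the submitters' processing notes with STAR and the mm10 build. No barcode had fewer than 500 UMIs, which shows a call of cells ahead of the deposit. The annotation release is not given in the sources used here; coordinates come from GENCODE M21.

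The limits of 300 genes and 15% mitochondrial UMIs removed 32.8 to 35.9% of control and 29.9 to 32.2% of EC-OVA barcodes. Scrublet in scanpy 1.11.5 scored doublets, and its automatic cut called 0.0260 to 0.304% of cells, so no cell was removed; the highest scores at 0.8% per 1000 barcodes were called high and left out in an alternative. UMIs were summed per library, filtered with filterByExpr, normalized by TMM, and compared by edgeR 4.0.16's quasi-likelihood test (R 4.3.3), with Benjamini-Hochberg adjustment over all genes tested and a threshold of 0.05. Adjusted p-values in the text are from this test. Standard errors beside log2 changes were derived as the absolute log2 change divided by the square root of the test's F statistic, and are approximate. The difference of responses is the cell type by treatment term with library as a block. CPM are UMI sums scaled to a total of 1e+06 per library. Shares were tested by exact permutation (scipy 1.17.1). Clusters used 1000 variable genes, 15 components, 15 neighbours and resolution 0.4. Libraries shallower in lymphatic UMIs carry more error, and intervals cover counting error only.

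The cells, 31 gene lists, tests and alternatives were chosen with earlier results of these data known. Genes named are the 15 largest rises and falls called without overlap between groups at 20 CPM or more in the higher group, the 6 markers, up to 4 called members of each list (or the 2 of smallest p) and the 8 response differences of smallest p in each direction; further genes were named after their values were seen. Alternatives were DESeq2 1.42.0 and its size factors, no filter on low counts, a replicate block, 4 in place of 2 marker UMIs, a 10% mitochondrial limit, other cell exclusions and leaving out each library.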

Additional observations from a re-analysis of the deposited data

Results flagged for a closer look

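The response to OVA differed between lymphatic and blood endothelial cells, by edgeR's test of the difference itself, for the genes below; each value is the lymphatic minus the blood endothelial log2 change. Antigen presentation and interferon genes gave 1.62 for Psmb8, 0.72 for H2-K1, 0.55 for B2m, 2.53 for Gbp4 and 1.21 for Isg15. Dividing-cell genes gave 3.25 for Birc5, 1.42 for Stmn1, 2.18 for Cenpa, 0.73 for Tuba1b and 0.52 for H2afz. Genes of adhesion and innate immunity gave 1.06 for Selp, 3.39 for Ptx3, 1.08 for Lcn2, -0.70 for Icam1, -1.46 for Cxcl2 and -0.82 for Cxcl1. Secreted factors gave -2.89 for Nts, -0.99 for Prss23 and -1.68 for Gdf15.

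Epithelial genes differed too. Krt5 gave 2.995 and Krt14 2.18: blood endothelial Krt5 went from 261, 210 and 306 CPM to 38.6, 13.3 and 9.43, and lymphatic Krt5 from 61.5, 61.9 and 59.2 CPM to 96.1, 22.5 and 5.55. In EC-OVA library 1, 579 of the 691 lymphatic UMIs of the keratins and Lgals7 came from 5 of 106 cells. Sprr1a gave -4.19, Sprr1b -3.62 and Krt2 -1.62, and Jup, a plakoglobin of junctions, gave 1.0. The differences did not pass for Sprr1b without control library 1 or 2 (adjusted p = 0.0719 and 0.0864), Krt2 without control library 1 or 3 (0.114 and 0.0881), Krt14 without control library 1 or EC-OVA library 1 (0.0635 and 0.114) and Jup without each library except EC-OVA library 3 (0.0554 to 0.135). The summed keratinocyte markers were lower after OVA in both cell types, with means of 5699 and 2034 CPM in blood endothelial cells, where Sprr1a and Sprr1b had log2 changes of 1.53 and 1.31 that did not pass (adjusted p = 0.468 and 0.271). What part keratinocyte RNA had was not tested.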

How the results depend on the processing

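For the lymphatic comparison (16 genes higher, 21 lower), no filter on low counts gave 98 and 114, and leaving out the 2 mixed clusters 29 and 32. Leaving out cells with markers of other types gave 8 higher, leaving out cells with 10 keratinocyte UMIs 7 higher, 4 marker UMIs 11 lower and the 10% mitochondrial limit 13 lower. Leaving out 1 library gave 1 to 38 higher and 4 to 39 lower. The exclusions of leukocyte-UMI cells, of keratinocyte-UMI cells and of mixed clusters were added after the data were seen. The blood endothelial counts (83 and 92) were 179 and 185 without a filter, and 18 to 87 and 21 to 102 without 1 library. The response differences (18 and 11) were 81 and 95 without a filter, and 5 to 32 and 10 to 24 without 1 library.

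With the replicate number as a block the lymphatic counts were 35 higher and 51 lower. Deviations of same-numbered libraries correlated at 0.0361, 0.0135 and 0.0258 in lymphatic cells, and at 0.0864, 0.188 and 0.103 in blood endothelial cells, where each library correlated best with its own number. The labels do not say that the numbers pair libraries, so the main test took no pairs, and these correlations do not settle it. The block gave 106 higher and 130 lower blood endothelial genes.

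The lymphatic share of endothelial cells became 1.21 percentage points higher at 4 marker UMIs. For genes not called, signs turned for Ccl21a (-0.0430 at 4 marker UMIs, -0.0018 without high doublet scores, -0.0044 without keratinocyte-UMI cells, -0.00996 without mixed clusters, -0.0936 to 0.14 without 1 library), Fabp5 (0.0763 at 4 marker UMIs), Col1a1 (0.38 without cells of other types, 0.59 without mixed clusters, -2.56 to 1.03 without 1 library) and Cd14 (-0.22 at 4 marker UMIs, -0.00077 at 10% mitochondrial, -0.0258 without leukocyte-UMI cells, -0.0357 without keratinocyte-UMI cells, -0.0131 without mixed clusters, -0.13 to 0.13 without 1 library). Without 1 library Il13ra1 ranged from -0.0369 to 0.90, Zbtb46 from -0.43 to 0.23 and Nts from -0.27 to 0.17, Ccl2 from -0.0234 to 0.24, Il7 from -0.14 to 0.0457 and Isg15 from -0.17 to 0.54. Mcm3 gave -0.0162 without high doublet scores, -0.0356 without cells of other types, -0.0015 without keratinocyte-UMI cells and -0.0128 to 0.14 without 1 library, and Il7 0.0797 without cells of other types. Causes were not tested. Over 37 called genes, 392 of 596 alternative values kept the call, 204 lost it and none reversed; of 200 values for 25 response differences 40 lost it.

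The lymphatic share of kept cells kept its direction in all 11 alternatives run, and that of endothelial cells in 10 of 11. Depth limits genes with few UMIs, such as H2-Aa, and 3 libraries a group limit every p-value.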

Other observations

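Ccer2, a gene for a coiled-coil protein, had 1228 UMIs in 1 of the 105 lymphatic cells of control library 2, a cell with 5224 UMIs in all, 2 UMIs of the genes of the rule and a high doublet score. The other libraries' lymphatic cells held 1 UMI of it and all other kept cells 14. Col1a1 in lymphatic cells stood at 725 CPM in control library 1 and 34.8 and 64.4 in the other controls. Il6, encoding interleukin-6, stood at 44.7, 25.1 and 51.5 CPM in control lymphatic cells and 54.1, 193 and 72.2 after OVA (log2 change 1.42, adjusted p = 0.259). Il7, a cytokine made by lymphatic endothelium, stood at 74.6, 77.4 and 90.1 CPM in the controls and 76.6, 67.5 and 88.8 after OVA (log2 change -0.03, adjusted p = 0.987), against a blood endothelial mean near 1.11 CPM in the controls. Ackr3, a scavenging receptor, reached 142 CPM in EC-OVA library 3 and 24.2 to 53.4 CPM in the other libraries.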
